A study of Mus musculus with 64 samples.

Results

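Clones H and V were compared with clones K, M, N and T, the group 2 clones, across the transcriptome of cells grown alone, and clone E was then placed on the genes that separated them. The members were the mono-culture libraries of these 6 clones, 24 of the 64 libraries in the series, with 4 libraries for each clone. The 4 libraries of a clone were summed, so the comparison was 2 clones against 4. The 4 mono-culture libraries of clone E, which the study grouped with H and V by their metabolites, were kept out of the test, and the KPC1 line was left out.

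All clones were lines grown from a single pancreatic tumor of a KPC mouse of mixed C57BL/6 background, which carries a mutant Trp53 allele (Trp53 +/R172H) together with Pdx1-Cre among its engineered alleles, so every group came from the same engineered genotype. Whether single clones lost or gained alleles is not given in the labels. Pdx1-Cre drives recombination in the pancreatic epithelium. Each line was 1 clone, so a difference between the sides is a difference between 2 and 4 particular clones. In co-culture, tumor cells were grown with fibroblasts for 48 h and separated by their green fluorescence, and neither a sort of the mono-cultures nor separate cultures behind the 4 libraries of a clone are given in the labels. P-values therefore measure the spread between these clones.

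Library totals in mono-culture ran from 12994330 to 19486215 counts in H and V and from 11661214 to 18781361 in group 2. Of 8 markers of the pancreatic tumor epithelium, the keratins Krt8 and Krt18 and the ductal factor Sox9 were at 86.9 CPM or more in each of the 7 clones, whereas Epcam was at 0.356 CPM or less (CPM, the gene's counts per total counts of the library on the usual scale, for these markers with no further scaling). Cdh1, which encodes E-cadherin, ran from 1.01 CPM in clone M to 308 in clone V. Among 12 markers of fibroblasts 7 did not exceed 1 CPM in any clone, and Thy1 and Lum had no count in mono-culture. The other 5 reached 90.8 (Pdgfrb), 77.2 (Col3a1), 33.1 (Pdgfra), 31.7 (Col1a1) and 3.47 CPM (Col1a2). Among 7 leukocyte markers 6 did not exceed 1 CPM, the exception being Cd68, at 3.96 to 18.4. A lower level of an RNA in these bulk samples cannot be told apart from fewer cells that carry it.

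Clones of one tumor can differ in the signals they send, in the matrix they secrete and in the lineage factors they keep. Wnt ligands are secreted proteins that bind Frizzled receptors, with co-receptors such as Ror1 and Lgr proteins and secreted inhibitors such as Dkk2 setting the strength of the signal. Collagens and laminins form the matrix around cells, and matrix metalloproteinases cleave it.

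Of 15306 genes that passed the filter on low counts, 217 (1.42%) differed between H and V and group 2 at an adjusted p under 0.1 by edgeR's quasi-likelihood test. An unadjusted p under 0.05 was found for 2104 genes, those 217 included. CPM in the comparisons below are of the summed libraries of a clone, scaled by TMM, and a fold change is the log2 of H and V over group 2 with its standard error (SE). Of the 217 genes, 114 (0.745% of those tested) were higher in H and V, with a median log2 fold change of 3.7, and 103 (0.673%) were lower, with a median of -3.7. H and V did not overlap the group 2 clones at any of the 217 genes, but that was also so for 3790 of all genes tested (24.8%). Many of the differences were between expression and near silence: 59 of the 114 higher genes averaged less than 1 CPM in group 2, and 47 of the 103 lower genes averaged less than 1 CPM in H and V.

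The count depended on single clones. Without clone H 2 genes were called, without M 19, without N 202 and without K 603, and without V or without T none was called (1179 and 1597 genes at an unadjusted p under 0.05). All 217 genes kept the direction of their fold change in each of these fits. H and V did not overlap group 2 at any of them, so this could hardly be otherwise and does not measure stability. The sample numbers in the labels run in 2 series, and all 4 libraries of K, 1 of H, 1 of M and 2 of T belong to the second. With the first series alone, which holds none of K, 618 genes were called, 316 of them higher, and 204 of the 217 were among them.

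The promoters of 2 named genes of small p-value in each direction, with an entry in RefSeq (GRCm38.p6), are shown first. These genes were on in one set of clones and at a few CPM or less in the other. They are not in every case those of smallest p-value. Edil3 and Myo7b had smaller p-values by edgeR than Glipr2 and Foxf2, respectively, and their promoters are not shown. Each sequence is the coding strand, 5′ to 3′, from 250 bases before the start of the gene to 50 after it. Capitals mark TGANTCA, the core AP-1 motif, or CAGGTG and its reverse complement CACCTG, an E-box. Glipr2 and Capn6 were higher in H and V, and Wnt4 and Foxf2 were lower.
Glipr2: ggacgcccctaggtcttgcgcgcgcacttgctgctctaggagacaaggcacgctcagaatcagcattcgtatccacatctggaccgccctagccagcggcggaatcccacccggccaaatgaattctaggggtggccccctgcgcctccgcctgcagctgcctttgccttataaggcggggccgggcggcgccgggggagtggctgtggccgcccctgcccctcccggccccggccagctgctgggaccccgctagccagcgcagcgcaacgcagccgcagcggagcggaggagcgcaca
Capn6: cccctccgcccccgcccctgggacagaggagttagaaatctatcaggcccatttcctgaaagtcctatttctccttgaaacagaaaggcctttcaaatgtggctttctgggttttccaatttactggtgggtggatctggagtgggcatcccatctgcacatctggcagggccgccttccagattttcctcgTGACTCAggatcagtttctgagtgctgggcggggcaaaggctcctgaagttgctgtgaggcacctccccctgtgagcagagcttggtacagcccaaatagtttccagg
Wnt4: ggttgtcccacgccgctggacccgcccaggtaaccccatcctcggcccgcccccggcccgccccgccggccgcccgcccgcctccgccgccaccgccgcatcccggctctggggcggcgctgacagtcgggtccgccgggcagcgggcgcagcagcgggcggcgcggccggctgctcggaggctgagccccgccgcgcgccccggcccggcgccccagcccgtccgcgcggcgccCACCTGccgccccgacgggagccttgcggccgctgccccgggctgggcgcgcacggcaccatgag
Foxf2: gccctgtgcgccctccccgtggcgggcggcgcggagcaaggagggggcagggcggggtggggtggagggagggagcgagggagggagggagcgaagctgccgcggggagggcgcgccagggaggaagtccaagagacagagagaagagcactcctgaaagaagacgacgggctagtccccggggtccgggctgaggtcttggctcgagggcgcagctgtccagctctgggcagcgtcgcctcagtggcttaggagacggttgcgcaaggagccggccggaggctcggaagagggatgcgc
The Glipr2 promoter lies at chr4:43957452-43957751 (+), Capn6 at chrX:143827363-143827662 (-), Wnt4 at chr4:137277385-137277684 (+) and Foxf2 at chr13:31625566-31625865 (+). They hold 28, 5, 51 and 27 CpG dinucleotides, in that order, against a median of 21 in the first listed promoter of the 10110 tested genes with an entry. The AP-1 motif was found in the Capn6 promoter, and the E-box in that of Wnt4. Over the first listed promoters, TGANTCA was in 5.31% of the tested genes, in 7 of 77 (9.09%) of those higher in H and V and in 4 of 74 (5.41%) of those lower. CAGGTG or CACCTG was in 17.3%, in 17 of 77 (22.1%) and in 20 of 74 (27%), respectively. Over all 32851 promoters listed, the shares were 7.81% and 20.2%. These matches describe letters in a window and were not tested.

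The genes higher in H and V were led by an adhesion protein of the matrix. Edil3, a secreted ligand of integrins (chromosome 13, 88821472 to 89323223, GRCm38), was at 97.5 CPM in H and 75.9 in V, and in group 2 at 1.37 (K), 2.7 (M), 3.05 (N) and 2.98 (T). Over single libraries, Edil3 ran from 60.4 to 116 CPM (median 90.2) in the 8 of H and V and from 1.19 to 4.27 (median 2.5) in the 16 of group 2. The log2 fold change of Edil3 was 5.10 ± 0.36 (SE), with an adjusted p of 0.0204 by edgeR. Every library of both clones was therefore above every group 2 library.

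Glipr2, a protein of the Golgi membrane, was at 15.3 CPM in H and 24.6 in V, and between 0.123 and 0.358 in the 4 group 2 clones (log2 fold change 6.37 ± 0.49, adjusted p = 0.0231). Capn6, a member of the calpain family that lacks protease activity, was at 22.1 CPM in H but 4.8 in V, and at 0.051 or less in group 2 (8.61 ± 0.81, adjusted p = 0.0409). The 2 clones on the higher side thus differed more from each other for Capn6 than for Glipr2.

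Gad2, which makes the transmitter GABA and is also found in pancreatic islets, was at 31.1 CPM in H and 11.6 in V and between 0.186 and 0.493 in group 2. Syn1, which encodes the synaptic vesicle protein synapsin, was at 95 CPM in H and 79.7 in V and between 4.7 and 13 in group 2 (log2 fold change 3.35 ± 0.37, adjusted p = 0.0496). Smaller but tight differences were seen for genes expressed by all clones. Hbegf, an EGF receptor ligand, was at 239 CPM in H, 179 in V and between 61.4 and 73.7 in group 2 (1.65 ± 0.18, adjusted p = 0.0496). Fmnl1, a formin that builds actin filaments, was at 101 and 121 CPM in H and V and between 21.7 and 31.3 in group 2 (1.99 ± 0.20, adjusted p = 0.0444). The other named genes on this side were Ttc39c, Gpr124, a co-receptor of Wnt7 signals, Maged2, Col8a1, Fkbp3 and Slc4a4, a bicarbonate carrier, with log2 fold changes from 1.29 (Fkbp3) to 4.94 (Ttc39c).

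**Figure D1:**
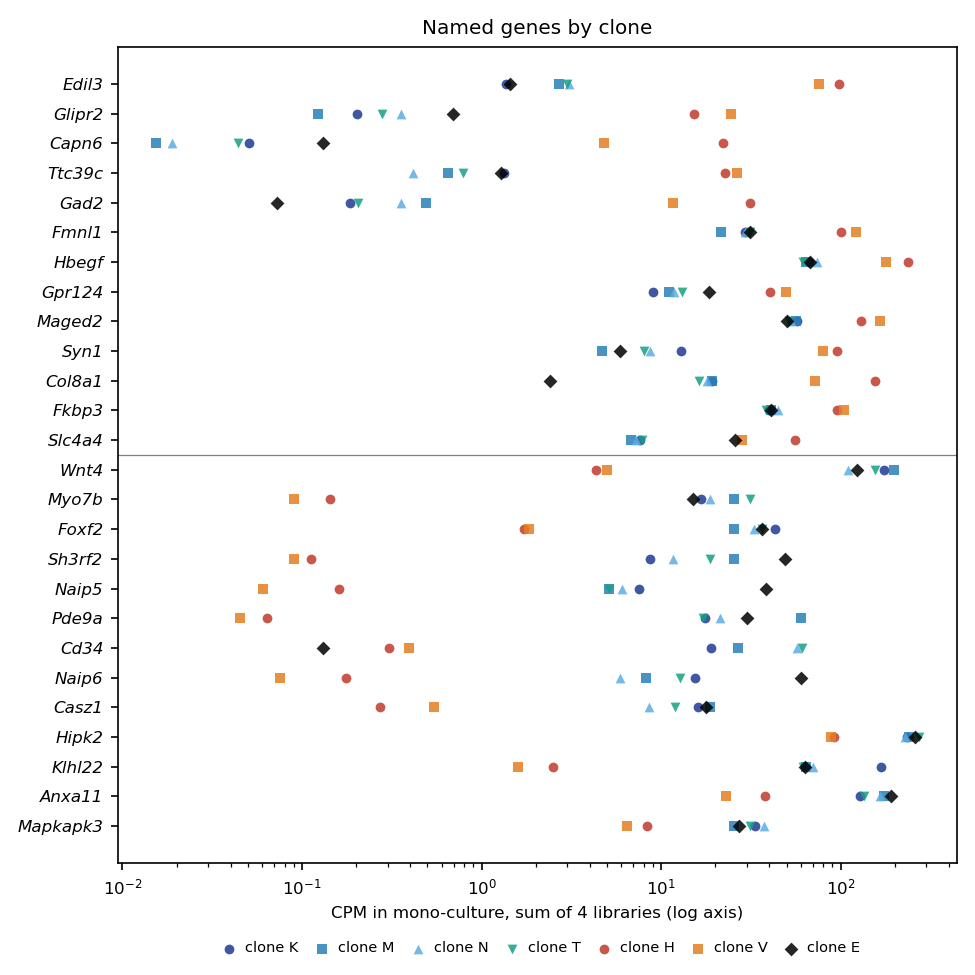
CPM of 26 named genes in mono-culture on a log axis, 1 point per clone (sum of 4 libraries), the 13 higher in H and V above the grey line and the 13 lower below it. For every gene the red and orange points of H and V stand apart from the blue and green points of K, M, N and T, and clone E (black diamonds) lies away from H and V for most of them, with Cd34 and Slc4a4 among the exceptions.

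The gene of smallest p-value was lower in H and V. Wnt4, a secreted ligand of epithelial and mesenchymal development (chromosome 4, 137277489 to 137299726), was at 4.34 CPM in H and 5.03 in V, and in group 2 at 174 (K), 199 (M), 110 (N) and 156 (T). Its log2 fold change was -5.09 ± 0.34 (adjusted p = 0.0204). The highest of the 8 libraries of H and V was at 8.01 CPM and the lowest of the 16 of group 2 at 41.3. Foxf2, a forkhead factor of the mesenchyme (chromosome 13, 31625816 to 31631403), was at 1.73 CPM in H and 1.85 in V, and between 25.4 and 43.2 in group 2 (-4.27 ± 0.32, adjusted p = 0.0231).

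Several other named genes in this direction were at less than 1 CPM in H and V. Myo7b, a myosin of brush-border microvilli, was at 0.144 and 0.091 CPM against 16.6 to 31.4 (-7.60 ± 0.53, adjusted p = 0.0204). Pde9a, which degrades cyclic GMP, was at 0.064 and 0.045 CPM against 17.2 to 60.3, with M the highest. Cd34, a sialomucin known from blood progenitors and vessel walls, was at 0.304 and 0.394 CPM, against 19 (K), 26.9 (M), 57.5 (N) and 61.1 (T) (-6.87 ± 0.75, adjusted p = 0.0496). Of 8 endothelial markers 4 were tested, and Cd34 was the one called. At an unadjusted p under 0.05 by edgeR, 2 were lower, Cd34 included, and 1 was higher. Vwf was at 0.614 CPM in H and 0.798 in V and between 1.05 and 4.41 in group 2, without TMM scaling. Kdr, the receptor of VEGF, was at 0.752 CPM in H and 7.75 in V and at 0.264 or less in group 2 (adjusted p = 0.151), and Pecam1 was at 2.22 and 1.26 against 0.102 to 1.17 (adjusted p = 0.523). Cdh5, Cldn5 and Emcn were at 0.0196 CPM or less in every clone.

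Naip5 and Naip6, sensors of bacterial flagellin in the inflammasome, were both lower in H and V (5.1 to 7.55 and 5.9 to 15.4 CPM in group 2, 0.176 or less in H and V). They are neighbouring copies of one gene family on chromosome 13, so reads may have been shared between them. Hipk2, a kinase of the DNA damage response, differed by less and with little spread, at 91.8 and 88.3 CPM in H and V and between 229 and 273 in group 2 (-1.44 ± 0.17, adjusted p = 0.0496). Sh3rf2, Casz1, Klhl22, Anxa11 and Mapkapk3 were the other named genes on this side, with log2 fold changes from -2.10 (Mapkapk3) to -7.29 (Sh3rf2). For Klhl22, clone K was at 168 CPM, the 3 others between 61.6 and 70, and H and V at 2.5 and 1.59.

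Among the pathway lists, members of the Wnt pathway were called in both directions. Of 34 tested Wnt genes 3 were higher and 3 lower in H and V, which is 17.6% against 1.42% of all genes tested, and the median log2 fold change of the list was 0.74 against -0.04 for all genes, with a range of 0.188 to 1 for the list over the fits that left out 1 clone. The ligand Wnt4 and the receptors Fzd7 and Lgr4 were the lower members. Fzd7 was at 57.2 CPM in H and 62.5 in V and between 228 and 394 in group 2 (-2.25 ± 0.30, adjusted p = 0.0569). Lgr4, a receptor of R-spondins, was at 10.3 and 3.81 CPM against 38.2 to 76.3. The higher members were the receptor Fzd8, the co-receptor Ror1 and the inhibitor Dkk2.

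Fzd8 was at 11.3 CPM in H and 19.9 in V and between 1.06 and 2.3 in group 2 (log2 fold change 3.29 ± 0.44, adjusted p = 0.0569). Dkk2 was at 15 and 13.8 CPM against 0.117 to 0.678 (5.78 ± 0.83, adjusted p = 0.0614). Ror1, a receptor of Wnt5a, was at 2.32 and 3.42 CPM, and in group 2 at 0.017 in K and 0.046 in M, with no count in N or T. At an unadjusted p under 0.05, 10 Wnt genes were higher (5.94% of all genes tested were) and 4 lower (7.81%). Several that missed the adjusted threshold had their highest levels in H and V. Lgr5, itself a target of the pathway, was at 38.7 CPM in H and 93.6 in V and between 0.277 and 5.73 in group 2 (adjusted p = 0.124). Wnt5a was at 29.1 and 70.1 CPM against 0.132 to 7.29 (adjusted p = 0.242), Wnt10b at 26.7 and 24 against 0.062 to 2.52 (adjusted p = 0.198), and Axin2, a feedback inhibitor, at 3.04 and 15.95 against 0.694 to 2.92 (adjusted p = 0.224).

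Collagen genes had the highest list median with more than 25 genes tested. Of 28 tested chains 4 were higher in H and V and none lower (14.3% called, against 1.42% of all genes tested). The list's median log2 fold change was 2.07. At an unadjusted p under 0.05, 15 were higher and 2 lower, where 5.94% and 7.81% of all genes tested were. Of the 28, 22 had a positive fold change. Col8a1, a short-chain collagen, was at 155 CPM in H and 71.8 in V and between 16.2 and 19.2 in group 2 (2.64 ± 0.30, adjusted p = 0.0496). Col7a1, of anchoring fibrils, was at 68.6 and 43.8 CPM against 1.56 to 5.22 (3.95 ± 0.49, adjusted p = 0.0496). Col4a5, a chain of basement membranes, was at 353 and 117 CPM against 16.4 to 38.9 (3.26 ± 0.50, adjusted p = 0.0708).

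Col11a1, a minor fibrillar chain (chromosome 3, 114030540 to 114220718), was at 53 CPM in H and 54.2 in V and between 0.113 and 1.56 in group 2 (log2 fold change 6.31 ± 0.86, adjusted p = 0.0569). Not all chains were higher. Col3a1, of the large fibrils, was at 54.7 and 41 CPM in H and V and at 59, 63.5, 74.1 and 7.26 in K, M, N and T (-0.09 ± 0.79, adjusted p = 0.977), and Col18a1, the most abundant chain, ran from 973 to 2049 CPM with overlapping sides (adjusted p = 0.856). The collagen median ranged from 1.56 to 2.48 over the fits that left out 1 clone.

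**Figure D2:**
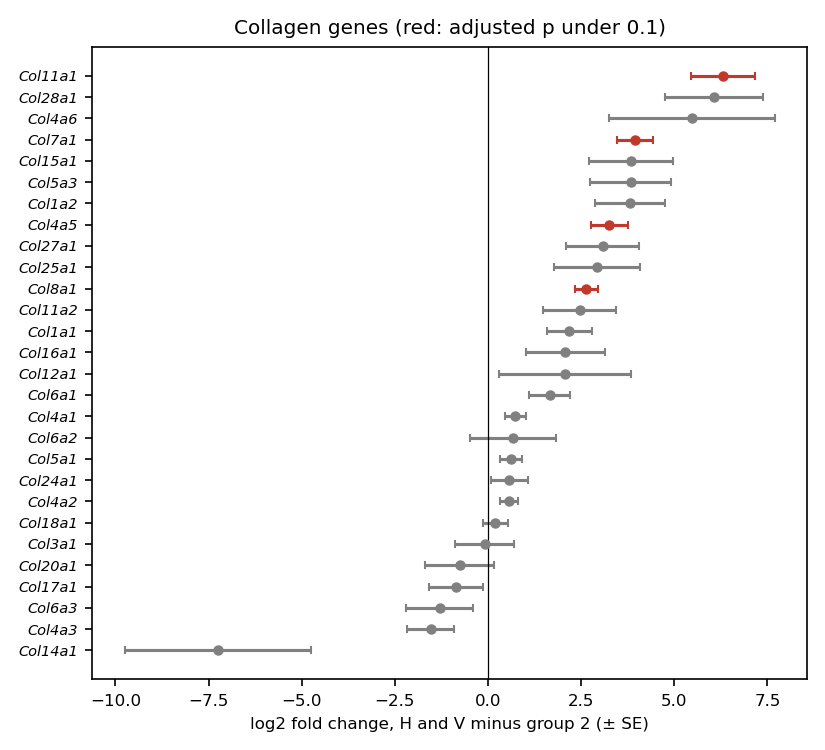
Log2 fold change (H and V minus group 2) with its SE for each of the 28 collagen genes tested in mono-culture, those with an adjusted p under 0.1 in red. 22 of the 28 points lie to the right of 0, the 4 red ones among them, and Col14a1 is farthest to the left, at -7.25.

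Enzymes and receptors of the matrix were also called in the higher direction. Of 46 tested MMP, ADAM, ADAMTS and TIMP genes 4 were higher and none lower (8.7%, against 1.42% of all genes tested). At an unadjusted p under 0.05, 7 were higher and 4 lower. Mmp2, gelatinase A (chromosome 8, 92827291 to 92853420), was at 75.6 CPM in H and 57.7 in V, at 0.406 in K and with no count in M, N or T (adjusted p = 0.0833). Adamts14, a procollagen protease, was at 25.9 and 43.4 CPM against 0.231 to 3.07 (4.52 ± 0.85, adjusted p = 0.0995), and Mmp10 and Adam33 were at 3.68 CPM or less in all clones. Of 31 integrins and laminins 2 were higher (6.45%). At an unadjusted p under 0.05, 9 of that list were higher and 3 lower. Lamb1, a chain of basement membrane laminin, was at 1080.5 and 986 CPM against a group 2 mean of 346 ± 54.7 (SD, n = 4) (1.58 ± 0.20, adjusted p = 0.0523). Itga7, a laminin receptor, was at 17.9 and 39.3 against 0.647 to 3.94. Of 35 cadherins and protocadherins Pcdh1 and Pcdh18 were higher (5.71%), Pcdh18 at 91.8 and 85.7 CPM against 7.37 to 20.

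Lineage factors were called in the lower direction. Of 12 tested pancreatic lineage factors 2 were lower (16.7%, against 1.42% of all genes tested) and none higher. The list median was -0.44. Onecut2, a homeobox factor of endocrine and hepatic precursors, was at 8.6 CPM in H and 12 in V and between 81 and 222 in group 2 (log2 fold change -3.70 ± 0.51, adjusted p = 0.0569). Klf5, a zinc finger factor of epithelial progenitors, was at 20.9 and 26.2 CPM against 67.4 to 148 (-2.21 ± 0.35, adjusted p = 0.0749). Pdx1, the pancreatic master factor, was at 51.7 and 57.6 CPM against 69.6 to 200 and did not pass (adjusted p = 0.321). Among the 12 tested factors of epithelial-mesenchymal transition Twist2 was lower (8.33%), at 9.65 and 4.06 CPM against 32.9 to 47.1 (adjusted p = 0.0774). Zeb1 did not pass, at 102 and 92.2 CPM against 71.6 to 83.1 (adjusted p = 0.442). Of 23 epithelial genes none passed, although the list median was -1.12 and 4 fold changes were positive. By clone, the median deviation of K (-0.37) lay between those of H (-0.71) and V (-0.235).

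Ligands of other pathways were called singly. Of 16 tested Notch and Hedgehog genes 1 was lower and 1 higher (12.5%, against 1.42% of all genes tested). The ligand Dll1 was lower, at 0.144 and 0.363 CPM in H and V and between 6.99 and 32.3 in group 2 (-6.37 ± 0.99, adjusted p = 0.0708). The ligand Dll4 was higher but near the floor, at 0.208 and 1.07 CPM against 0.046 or less. Its single libraries ran from 0 to 0.379 CPM in H and from 0 to 0.142 in group 2, so they overlapped. In the TGF-beta and BMP list (30 tested, 6.67% called, against 1.42% of all genes), the ligand Tgfb3 was higher (95.7 and 122 CPM against 40 to 49.2, adjusted p = 0.0569) and Id3, an inhibitor of helix-loop-helix factors switched on by BMP, was lower (23.6 and 20.7 against 72.3 to 199, adjusted p = 0.0835). At an unadjusted p under 0.05, 9 of the list were lower and 4 higher, where 7.81% and 5.94% of all genes tested were. The list's median log2 fold change was -0.45, with 8 positive. As clone medians of the deviation from the mean of the 6 clones, V was at -0.504 and H, at -0.05, lay within group 2 (-0.10 to 0.52). The 4 libraries of N ran from 17.8 to 162 CPM for Id3, so its lowest was below all 8 libraries of H and V (19.3 to 26.6). Spred3, an inhibitor of the ERK cascade, was the only member called of 19 MAPK output genes (5.26%). Against 1.42% of all genes tested, single calls were Plxnb1 (higher) of 43 guidance genes (2.33%), Hbegf of 30 EGF, PDGF and FGF genes (3.33%), Foxf2 (lower) of 18 YAP and TAZ targets (5.56%), Krt83 (higher, 0.378 CPM or less in all clones) of 26 keratins and claudins (3.85%) and Anxa11 (lower) of 21 S100 and annexin genes (4.76%). With 1 gene each, these are calls of genes and not of the lists.

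Detoxifying enzymes mostly had negative fold changes, and 1 passed the adjusted threshold. Of 57 tested genes of the Nrf2 and glutathione list 1 was called (1.75%, near the 1.42% of all genes), Gstt3, lower in H and V (0.144 and 0.091 CPM against 1.74 to 6.31, adjusted p = 0.0708). At an unadjusted p under 0.05, 16 were lower (28.1% of the list, against 7.81% of all genes tested) and 2 higher, and the list median was -0.66. Gsta4, a glutathione transferase, was at 58 CPM in H and 51.7 in V and between 198 and 465 in group 2 (-2.31 ± 0.45, adjusted p = 0.105), and Gclc, the first enzyme of glutathione synthesis, was at 46.3 and 36.1 against 78.2 to 210 (adjusted p = 0.164). The list median ranged from -0.795 to -0.47 over the fits without 1 clone.

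No member was called among the 33 tested genes of the integrated stress response, 25 of glycolysis and lactate, 80 respiratory chain subunits, 19 serine and one-carbon enzymes, 36 Myc and ribosome genes, 36 cell cycle genes, 31 interferon-stimulated genes or 15 genes of MHC class I presentation. Their list medians were -0.27, -0.07, 0.08, -0.16, 0.17, 0.03, -0.43 and -1.24, respectively. For MHC class I, clone K sided with V: H2-K1 was at 41.1 CPM in H, 11.7 in V, 6.4 in K and between 73.7 and 90.3 in M, N and T. Of 24 enzymes of glutamine, aspartate and proline Ass1 was the only one called (4.17%, against 1.42% of all genes tested). It was higher, at 0.608 and 0.666 CPM against 0.092 or less.

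None of the genes central to the study that are given here passed the threshold. The study compared ATF4, ASNS, PSPH, SHMT2 and c-Myc as protein, by immunoblot, with clone E on the side of H and V. RNA of H and V without E is a different measure. Atf4, the factor of the integrated stress response, was at 427 CPM in H and 388 in V, and in group 2 at 328 (K), 215 (M), 909 (N) and 499.9 (T) (log2 fold change -0.26 ± 0.55, adjusted p = 0.887). Its target Asns, asparagine synthetase, was at 153 and 118 CPM in H and V and at 50.3, 31.7, 333 and 158 in K, M, N and T (-0.08 ± 0.90, adjusted p = 0.982). Both sides overlapped, with K and M low and N high. Psph, Shmt2, Phgdh and Psat1, enzymes of serine and one-carbon metabolism, and Ldha, lactate dehydrogenase, had adjusted p-values between 0.686 and 0.918. Each was highest in N and lowest in K (Psat1, Ldha) or M (Psph, Shmt2, Phgdh).

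Myc was at 290 and 303 CPM against 166 to 378 (adjusted p = 0.822), Trp53 at 367 and 361 against 256 to 345 (adjusted p = 0.459), and Cdkn2a at 232 and 461 against 80.8 to 493 (adjusted p = 0.743). Cdh1 (adjusted p = 0.579) and Vim (adjusted p = 0.669), the epithelial cadherin and the mesenchymal filament, overlapped between the sides. The summed libraries of Trp53 did not, as was so for 24.8% of all genes tested. Its single libraries did overlap, at 347 to 388 CPM in H and V and 317 to 364 in N. Counts per gene do not separate alleles, so the Trp53 values cover mutant and normal transcripts together where a clone carries both.

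Called genes lay next to each other in 14 places, where no other tested gene stood between them. These runs held 31 of the called genes, and in each of the 14 all genes were on the same side. Neither their number nor their shared direction was set against neighbouring genes in general. The longest was on chromosome 7, 45627488 to 45694402, where Rasip1, Mamstr, Fut2 and Sec1, a fucosyltransferase pair and 2 neighbours, were all lower in H and V. Fut2 was at 0.016 and 0.03 CPM in H and V and between 0.982 and 2.08 in group 2. On chromosome 6 the complement proteases C1ra and C1s were both lower, C1s at 1.46 and 2.77 CPM against 16.6 to 53.1. The counting is not stated to use the strand of reads, so overlapping neighbours may share reads. These genes were chosen after their values were seen.

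Chromosome 18 held 2 such runs of the interferon-inducible GTPase family, one of Gm4951, the processed pseudogene Gm5970 and Gm4841 (60212080 to 60273272) and one of Iigp1 and the processed pseudogene BC023105 (60376027 to 60442980), all lower in H and V. Iigp1 had no count in any library of H or V and 1986 counts in group 2, at 18.8 (K), 8.68 (M), 2.92 (N) and 2.29 CPM (T), which is at least 353-fold lower in H and V when 3 counts over both clones are taken as the floor. The copies of this family are alike, so reads may have been split between them.

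Genes also moved by chromosome. Against a median log2 fold change of -0.04 over all genes tested, the median was 0.37 over the 406 genes of chromosome 18, 0.33 over the 499 of chromosome 12 and 0.09 over the 537 of chromosome X, and -0.41 over the 511 of chromosome 19, -0.26 over the 866 of chromosome 1 and -0.25 over the 711 of chromosome 10. The shift ran along whole chromosomes: in genes from the start, the middle and the end of a chromosome, in equal shares by position, the medians were 0.40, 0.38 and 0.33 on chromosome 18, 0.32, 0.35 and 0.35 on chromosome 12, and -0.42, -0.38 and -0.44 on chromosome 19. On chromosome 12, 37.1% of the genes were higher in both H and V than in all 4 group 2 clones, on chromosome 18 33.7%, and on chromosome 19 35.4% were lower, against 11.8% and 13% of all genes in the 2 directions.

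The clones behind these medians differed between chromosomes. For genes of at least 5 CPM, the median deviation of a clone from the mean of the 6 clones was 0.31 in H and 0.26 in V on chromosome 18, and between -0.20 and -0.03 in group 2. On chromosome 12 it was 0.30 and 0.23, against -0.15 to -0.08, and on chromosome 19 -0.23 and -0.27, against 0.06 to 0.31. H and V were thus outside the range of the other 4 on all 3 chromosomes. On chromosome 1 they were also both below group 2, at -0.05 and -0.24 against 0.003 to 0.155. On chromosome 10, V was at -0.30 and K at 0.34 while H was at 0.04, inside the range of group 2. The median of chromosome 10 ran from -0.423 to -0.125 over the fits without 1 clone, that of chromosome 18 from 0.32 to 0.42, of chromosome 12 from 0.30 to 0.38 and of chromosome 19 from -0.44 to -0.33. Of the called genes 19 lay on chromosome 18 (4.68% of its genes), 10 higher and 9 lower, so the calls there did not follow the direction of the median alone.

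**Figure D3:**
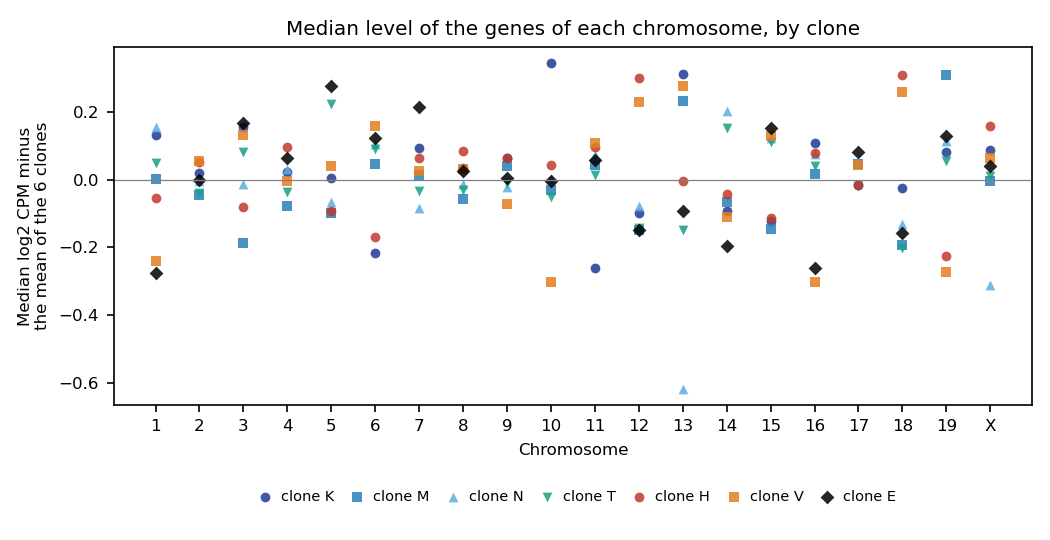
Median deviation of each clone's log2 CPM from the mean of the 6 clones, over the genes of each chromosome with at least 5 CPM. On chromosomes 12 and 18 H and V lie above all 4 group 2 clones and clone E, on chromosome 19 below them, and clone N is lowest on chromosome 13, at -0.62.

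Clone E was then placed on each of the 217 genes by an index that is 0 at the mean of the group 2 clones and 1 at the mean of H and V, on log2 CPM. Its median index was -0.08 (quartiles -0.26 and 0.07), -0.09 over the genes higher in H and V and -0.08 over those lower. Of the 217 genes, E was on the group 2 side at 180 (82.9%), between the sides at 33 and on the side of H and V at 4. At 108 of the 180 genes E was within the range of the 4 group 2 clones, and at the other 72 it lay beyond them, away from H and V. Over all 3790 genes whose sides did not overlap, called or not, E was on the group 2 side at 77.9%. Taken 1 by 1, the 4 libraries of E gave 172 to 179 genes on the group 2 side.

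The index of E was compared with that of each clone when the clone was left out of the test and placed by the others, over the 200 genes of smallest p-value in that fit. Left out in this way, H had a median index of 0.70 and V of 0.79, whereas K was at 0.34, N at 0.19, M at 0.00 and T at -0.02. In the same 6 fits E was between -0.10 and 0.00. In the fits without H or without V the other of them stood alone against 4 clones, so the spread behind the choice of genes came from group 2 only. K was the group 2 clone that came nearest to them, farther towards H and V than E. The genes overlap between the fits, so the 6 values are not independent.

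**Figure D4:**
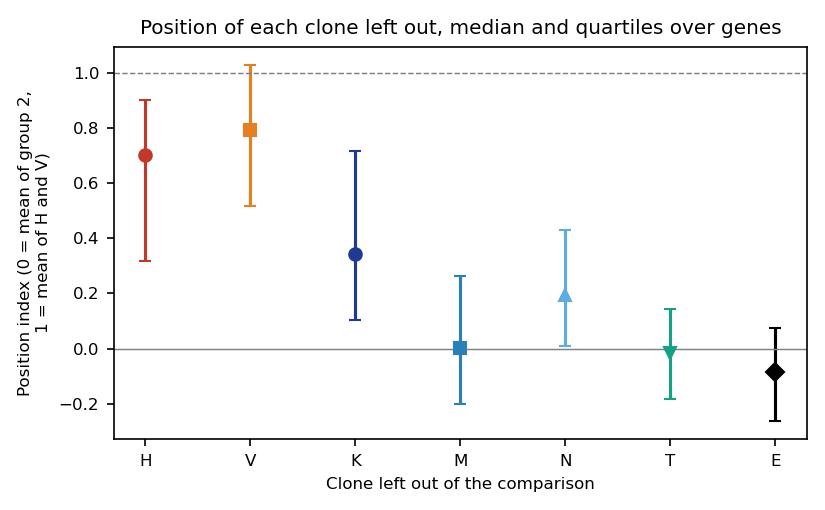
Position index (0 = mean of group 2, 1 = mean of H and V) of each clone, as the median and quartiles over the 200 genes of smallest p-value in a fit without that clone (E: over the 217 genes called). H and V, at 0.70 and 0.79, lie nearest to 1, K at 0.34 follows, and E, at -0.08, lies with M and T.

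The 4 genes at which E was on the side of H and V were all lower there. Cd34 was at 0.13 CPM in E, against 0.304 and 0.394 in H and V and 19 to 61.1 in group 2. Zfp503, a zinc finger repressor of the NET family, was at 0.043 CPM in E, 0.064 in H and 0.091 in V, and in group 2 at 52.7 (K), 7.92 (M), 97.3 (N) and 41.2 (T). Pag1, an adaptor that holds the kinase Csk at the membrane, was at 0.043 CPM in E, 0.24 and 0.318 in H and V and between 6.39 and 20.3 in group 2. Tnfrsf11a, the receptor RANK, was at 1.84 CPM in E, 3.07 and 1.79 in H and V and between 9.26 and 12.7 in group 2. No gene higher in H and V was as high in E. The nearest was Slc4a4, at 25.9 CPM in E, 55.8 in H, 28.2 in V and 6.78 to 7.86 in group 2, with an index of 0.75.

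At the genes with the smallest p-values E was mostly nearer to group 2, though not always within it. Wnt4 was at 123 CPM in E, inside the range of group 2, Foxf2 at 36.3, Edil3 at 1.45 and Hbegf at 67.1. Glipr2 (0.696 CPM in E), Capn6 (0.13), Myo7b (15.1), Fmnl1 (31.5) and Gpr124 (18.4) lay between the sides. Gad2, at 0.072 CPM, was lower in E than in any group 2 clone. In other genes E went farther from H and V than group 2 did: Naip5 was at 38.3 CPM in E and at most 7.55 in group 2, Sh3rf2 at 49.2 and at most 25.5, and Col8a1 at 2.39 and at least 16.2.

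The lists placed E the same way where H and V stood apart. As medians over the tested collagens of the deviation from the mean of the 6 clones, H was at 1.06 and V at 1.21, the group 2 clones were between -1.23 (M) and 0.07 (N), and E was at -1.01. For the Wnt list H and V were at 0.42 and 1.22, group 2 between -0.55 and 0.17, and E, at -1.82, below all others. For the Nrf2 and glutathione list H and V were at -0.28 and -0.43, group 2 between -0.01 and 0.40, and E at 0.24. On chromosomes 18 and 12 the median deviation of E was -0.16 and -0.15, and on chromosome 19 it was 0.13. Chromosome 1 was an exception, where E, at -0.275, was below group 2 on the side of H (-0.05) and V (-0.24). On chromosome 16 E, at -0.26, was low together with V, at -0.30, while H was at 0.08.

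In co-culture, the same 6 clones were compared after 48 h with fibroblasts. Of 15166 genes tested, 19 (0.125%) passed the adjusted threshold, 12 higher and 7 lower in H and V, and 1874 had an unadjusted p under 0.05 (12.4%). Of the 19 genes 15 were among the 217. Ttc39c (log2 fold change 3.54 ± 0.29, adjusted p = 0.0402) and Cd34 (-4.22 ± 0.35, adjusted p = 0.0402) were called in both cultures. Flrt2, an adhesion receptor, Trim54, Vip, a neuropeptide, and 2010300C02Rik were the 4 not called in mono-culture. The count was 6 without H, 28 without K, 1 without M or without T, and 0 without V or without N by edgeR (803 and 1840 genes at an unadjusted p under 0.05).

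Of the 217 genes, 204 were tested in co-culture, 198 of them with the same direction and 165 also with an unadjusted p under 0.05. The 2 cultures share the clones, so the second is no independent evidence. The differences were smaller in co-culture for 190 of the 204, with a median absolute log2 fold change of 1.95 against 3.32 in mono-culture, but these genes were chosen for their mono-culture difference. Over all 14651 genes tested in both cultures, 51.7% had the smaller difference in co-culture (median 0.332 against 0.323 in mono-culture). Of the 19 genes called in co-culture, 15 of them called in both, 17 had the smaller difference there. Of the 204, the 107 genes higher in H and V had a median of 3.34 in mono-culture and 1.65 in co-culture, and the 97 lower ones -3.15 and -2.7. Fibroblast markers were present in the co-culture libraries: the sum of 12 markers was between 613 and 1254 CPM in the 7 clones, against 56.9 to 212 in mono-culture, and Thy1, with no count in mono-culture, was at 6.11 to 16 CPM. Their part in the differences between cultures was not tested.

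**Figure D5:**
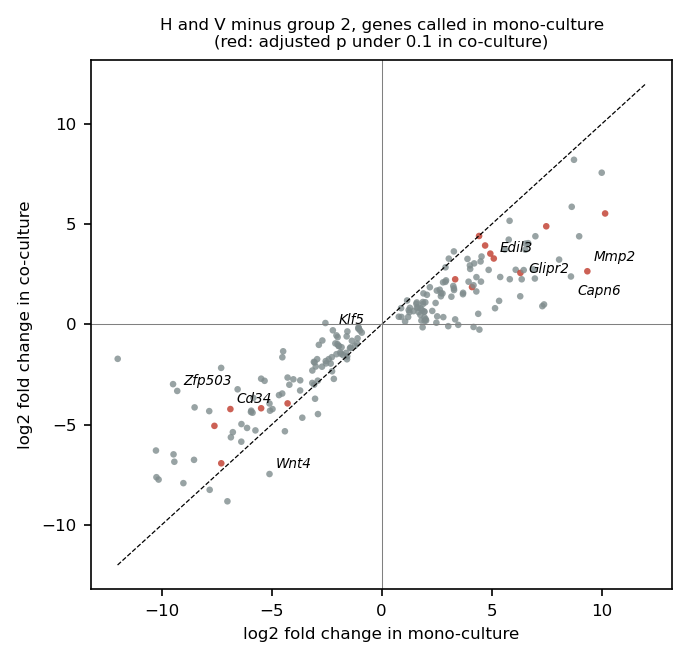
Log2 fold change of H and V against group 2 in mono-culture (x) and co-culture (y) for the 204 genes called in mono-culture and tested in co-culture, with the 15 genes called in both in red and the dashed line marking equal change. Most points lie between the dashed line and 0 on the y axis, and Wnt4 lies beyond the line.

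Single genes show how the sides kept or lost their distance. Mmp2 was at 68.1 CPM in H and 33.6 in V in co-culture, against 75.6 and 57.7 in mono-culture, and at 6.94 to 8.62 in the group 2 clones, 3 of which had no count when grown alone. Glipr2 was at 18.8 and 30.1 CPM in H and V and at 3.98 to 6.96 in group 2, where it had been at 0.358 or less in mono-culture. The difference in Glipr2 was smaller in co-culture by 4.15 ± 0.32 on the log2 scale (adjusted p = 0.0207, interaction of side and culture). Wnt4 was lower in every clone in co-culture, at 0.262 and 0.08 CPM in H and V and 7.2 to 48.3 in group 2, and the side difference did not pass there (-7.46, adjusted p = 0.16).

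The interaction of side and culture, with the clone as a covariate, was called at 48 of 16062 genes (0.299%), 25 of them among the 217. The fold change was lower in co-culture at 30 of the 48 and higher at 18. Capn6, Glipr2, Ror1, Gpr124 and Ass1 were higher in H and V and nearer to group 2 in co-culture, and Klf5, Klhl22, Mapkapk3 and Zfp503 were lower in H and V and nearer to group 2 in co-culture. Klf5 was at 32.3 and 66.5 CPM in H and V and between 39.6 and 80.1 in group 2 in co-culture, so that its sides overlapped. For the 217 genes, E in co-culture had a median index of -0.06, with 143 genes on the group 2 side, 6 on the side of H and V, 30 between and 38 at which the sides overlapped. Cd34 remained low in E in co-culture, at 2.21 CPM, against 3.56 and 2.8 in H and V and 45.4 to 75.8 in group 2.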

How the data were processed

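The members and gene lists were chosen with earlier results of these data known. Strand-specific polyA RNA-seq libraries of KPC clones were used as the authors deposited them, as raw counts per gene, with a table of RPKM values (reads scaled by gene length and depth, normalized by the authors) used only for an alternative. The submitters' processing notes name featureCounts, edgeR and the mm10 build, and the versions, aligner and annotation are not given in the sources used here. Whether counting used the strand is not stated either, so overlapping or antisense genes and near-identical copies are uncertain.

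The 4 libraries of each clone (11661214 to 19486215 counts each in the 6 clones) were summed, because libraries of 1 clone are not independent clones. Genes were filtered by filterByExpr and scaled by TMM, and H and V were tested against K, M, N and T by edgeR's quasi-likelihood test (edgeR 4.0.16, limma 3.58.1, R 4.3.3, with DESeq2 1.42.0 as an alternative), and p-values were adjusted by Benjamini and Hochberg's method, genes under 0.1 being called. CPM on a log scale used a prior count of 0.5. Co-culture was fitted in the same way, and the difference between cultures as an interaction with the clone as a covariate. The scripts were tested on simulated data. Of 39017 gene identifiers 37693 had a position in GENCODE M21 (GRCm38), whose symbols replace those the table holds as dates. Every count column matched a labelled sample.

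Named genes were the 14 of smallest p in each direction among those called with at least 5 CPM on the higher side and no overlap, leaving out Gm and Rik symbols, with called members of the lists, genes the study turns on, genes by the class of clone E, and the 3 chromosomes of highest and lowest median. Genes given beyond these were chosen after their values were seen. Promoters came from RefSeq tables, which matched 10128 genes. The KPC1 line was left out, and some genes that the rule names are not reported here. Alternatives changed the test, scaling, filter, threshold, unit, clones and libraries.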

Additional observations from a re-analysis of the deposited data

Results flagged for a closer look

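In 56 groups of 4 clones, 3 had a value far from the other clones. That is near the share that chance gives, about 1 in 20. Clone M stood apart from K, N and T in Pde9a, at 60.3 CPM, and clone K from M, N and T in Klhl22, at 168 CPM. On chromosome 10 clone K had a median log2 deviation of 0.343, apart from the other group 2 clones.

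For 25 of the genes called in mono-culture, the difference between H and V and group 2 differed in co-culture by the interaction test (edgeR, adjusted p under 0.1). Only the 9 of them named by the selection rule are given here. The change in log2 fold change from mono-culture to co-culture was -4.15 for Glipr2, -6.15 for Capn6, -1.74 for Gpr124, -6.43 for Ror1 and -3.17 for Ass1, all higher in H and V. It was 1.26 for Klhl22, 1.17 for Mapkapk3, 5.75 for Zfp503 and 1.85 for Klf5, all lower in H and V. Fibroblast markers were also higher in the co-culture libraries, and their part in these changes was not tested.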

How the results depend on the processing

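The 217 genes called in mono-culture became 1361 by DESeq2, 43 at an adjusted p under 0.05, 618 with the first series of sample numbers alone, and 1195 with 24 libraries and the clone as a random effect in voom. Other scaling, filters, RPKM values and clone E as its own level in the fit gave 171 to 262. The 2 filters added after seeing the data gave 161 and 151. Of the 217 genes, the RPKM fits, with their own filter, called 136 with 1 added before the log and 144 with 0.1. The voom fit with the clone as a random effect called 156 of them. Leaving out 1 clone gave 0 to 603 genes, and leaving out the libraries of 1 replicate number 102 to 298. For clone E the median index of -0.0845 was -0.0688 over genes of at least 5 CPM and -0.0595 in co-culture (added after seeing the data), ran from -0.129 to 0.097 without 1 clone (2 genes without H, none without V or T, so no value) and from -0.103 to -0.0771 without 1 replicate number. The 19 genes in co-culture became 945 by DESeq2 and 0 to 28 without 1 clone, the 48 of the interaction 960 by DESeq2, and the 19 gene lists with a call 35 by DESeq2 and 0 to 26 without 1 clone. The distance between the highest and lowest chromosome median, 0.777, ran from 0.717 to 0.859. The cause of these changes was not tested.

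With the 24 libraries as separate samples, 5903 genes were called, and 5629 with the replicate number as a replicate block. Both treat libraries of 1 clone as independent. Over 60 same-numbered pairs the correlation of deviations ran from -0.152 to 0.362 (median 0.0693, against -0.0216 for other pairs), 20 of them over 0.1, so the numbers were not taken to pair the libraries. As a hint from the data, 13 of 24 libraries correlated best with their own number.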
